A study of Homo sapiens with 20 samples.

Results

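Heme synthesis and heme breakdown were followed at the transcript level through 9 genes, 7 of them enzymes of the synthesis pathway (ALAS1, ALAD, UROS, UROD, CPOX, PPOX and FECH) and 2 of them heme oxygenases (HMOX1 and HMOX2). They were taken by symbol from the 45372 genes of both expression tables, and all 9 were found and passed the filter on low values in each table. The cells were HEK293T, an established line of human embryonic kidney cells with the SV40 large T antigen, and each group was given either siRNA against HUWE1, a HECT-domain ubiquitin ligase, or non-targeting (NT) siRNA. The groups, with 4 biological replicates each, were HUWE1 siRNA without a set number (called set 1 here) and its NT siRNA libraries in the first table, and HUWE1 siRNA of set 2, HUWE1 siRNA of set 3 and the NT siRNA libraries that sets 2 and 3 share in the second. No source used here states what distinguishes the sets, and knockdown by siRNA leaves part of the transcript in place. The genes were chosen by measured TPM values and fold changes of HUWE1 siRNA against NT in all sets. Their fold changes and calls in those comparisons are therefore given as a description, with no p-value for a gene, and are no support for a change of the pathway.

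Heme is an iron-bearing porphyrin that serves in cytochromes, catalase and other proteins. Its synthesis starts in the mitochondrion, where ALAS1 joins glycine and succinyl-CoA in the rate-limiting step of non-erythroid cells, continues in the cytosol, where ALAD, UROS and UROD act, and returns to the mitochondrion for CPOX, PPOX and FECH, which inserts the iron. Heme holds its own synthesis in check by lowering ALAS1. HMOX1, the stress-inducible heme oxygenase, and HMOX2, the constitutive one, open the ring to give biliverdin, iron and carbon monoxide. HMOX1 transcription is driven by NRF2 (NFE2L2) and held down by the heme sensor BACH1.

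Values are TPM, a measure per length and per library, so levels can be compared between genes, and sequencing depth is unknown. HUWE1, the targeted transcript (GRCh38, chromosome X, 53532096 to 53686729, minus strand), was at 83.5 to 86.9 TPM in HUWE1 siRNA libraries of set 1, against 154.5 to 162.3 TPM in their NT libraries. It was at 91.6 to 96.8 TPM in set 2 and 79.9 to 89.7 TPM in set 3, against 159.1 to 166.7 TPM in the shared NT libraries. That is 54.1%, 57.9% and 51.9% of the NT mean in sets 1, 2 and 3, and no group overlapped its NT libraries. All 9 markers chosen for the HEK293 line were at a mean of 1 TPM or more in every group. Of 9 erythroid markers only HBA1 reached a mean of 1 TPM in any group, and HBB was listed at 0 in all libraries. ALAS2, the erythroid form of the first enzyme, did not exceed 0.0550 TPM in any library. The 5 hepatocyte markers together summed to 0.803 to 3.06 TPM and the 5 macrophage markers to 1.57 to 5.41 TPM. Among the shared NT libraries, replicates 1 and 4 stood apart from each other, with the lowest correlation of log2(TPM + 1) across genes between 2 libraries of any group (0.980), so values without them are given beside those of sets 2 and 3 where they move by over 1.5 times.

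In NT cells of set 1 the order of levels was HMOX1 at 148.8 ± 5.999 TPM, ALAS1 at 80.5 ± 2.88, UROD at 76.4 ± 1.71, HMOX2 at 75.8 ± 3.75, CPOX at 33.3 ± 2.80, PPOX at 26.7 ± 0.494, ALAD at 19.3 ± 0.847, UROS at 15.1 ± 0.846 and FECH at 6.496 ± 0.302 TPM (SD, n = 4). The values of ALAS1 overlapped those of UROD, and those of UROD overlapped those of HMOX2, while all other neighbours in this order did not overlap. The last enzyme, FECH, was thus the lowest of the 9 and the inducible oxygenase the highest. In the shared NT libraries of sets 2 and 3, CPOX held 51.3 ± 3.23 TPM, PPOX 17.9 ± 1.16 and FECH 11.7 ± 2.07 TPM (SD, n = 4), and HMOX1, ALAS1 and UROD overlapped at the top. The tables were normalized separately, so the gaps between them were not tested. With HUWE1 siRNA the order of the means differed at the top. In set 1 HMOX1, at 85.9 TPM, overlapped UROD, at 85.0 TPM. In sets 2 and 3 UROD was first, without overlap with the next, at 85.3 and 95.6 TPM. By mean HMOX1 was first in the shared NT libraries, with replicate 1 at 141.8 TPM. In NT replicates 2 and 4, however, UROD was above HMOX1 and ALAS1, at 79.0 and 79.4 TPM.

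**Figure D1:**
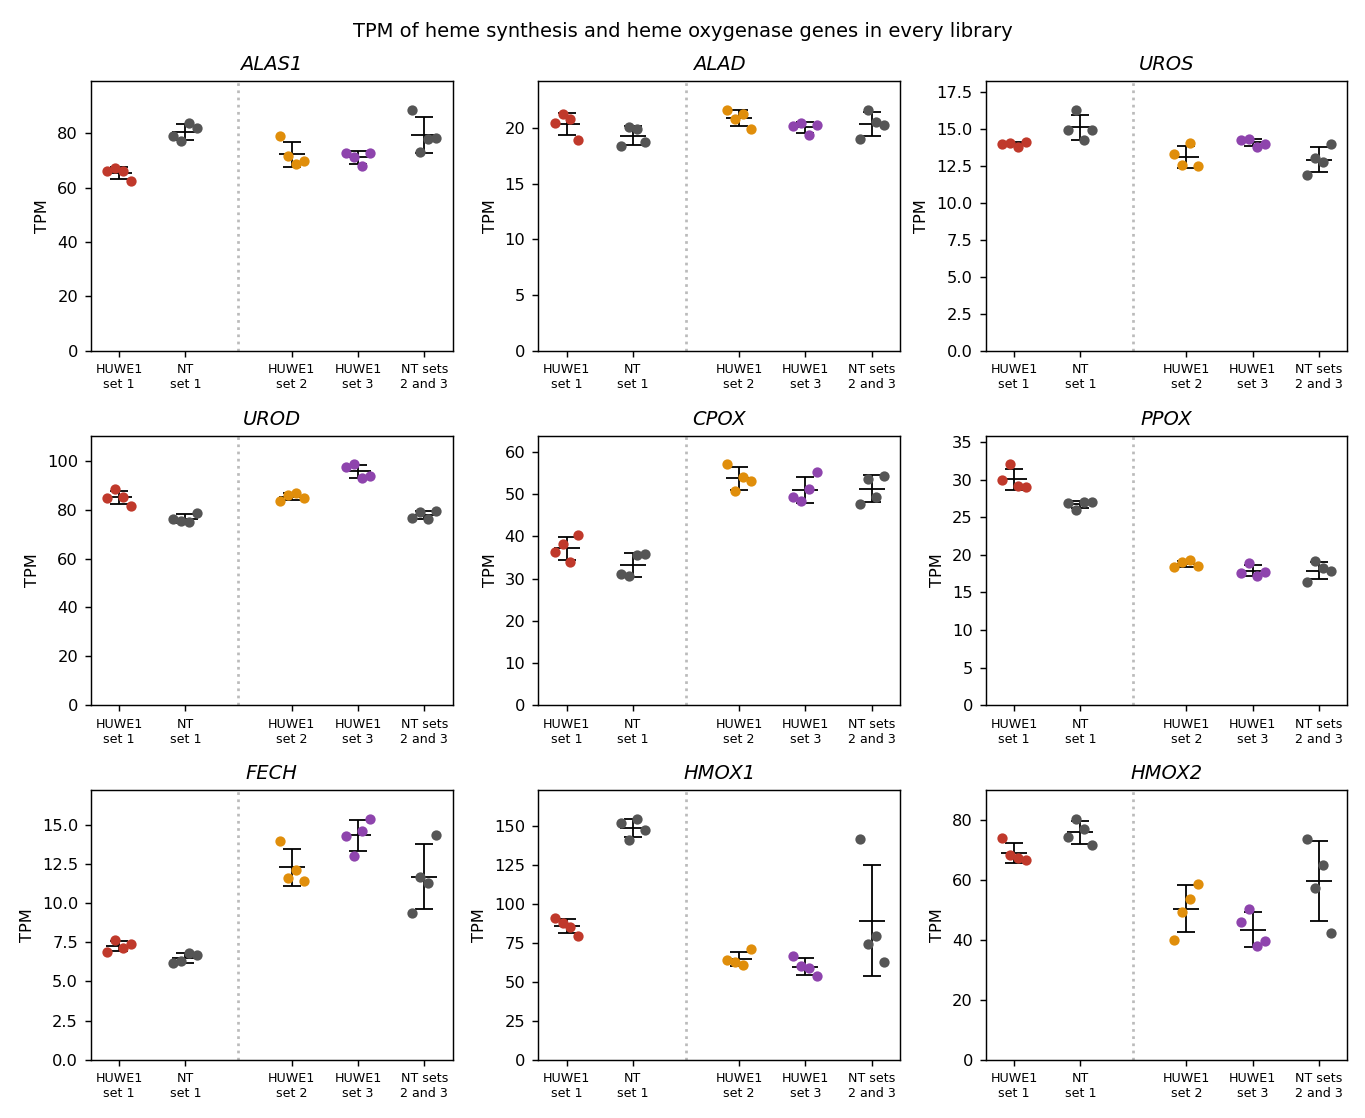
TPM (vertical axis, linear and starting at 0) of each of the 9 genes in each library (points) with the mean and SD of 4 libraries (bars), HUWE1 siRNA left of its NT siRNA. The dotted line parts the first table from the second, which were normalized separately. HMOX1 sits at 79.7 to 90.8 TPM in HUWE1 siRNA libraries of set 1 and at 141.1 to 154.6 TPM in their NT libraries, while 1 shared NT library lies far above the other 3.

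In set 1, HMOX1 fell to 57.7% of its NT level, ALAS1 fell to 81.4%, and UROD and PPOX rose to 111.3% and 112.4%. In the fit across all genes, 5 of the 9 members passed the test (limma adjusted p under 0.05), UROD and PPOX higher and ALAS1, HMOX1 and HMOX2 lower. At an unadjusted p under 0.05 there were 8 of the 9. The background in that comparison was 30.3% of 16057 genes called, 12.3% higher and 17.9% lower, and 6734 genes at an unadjusted p under 0.05. The median log2 fold change of the 9 was 0.07, against -0.01 for all genes tested.

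ALAS1 (chromosome 3, 52198086 to 52214327, plus strand), the entry enzyme, held 66.2, 67.4, 66.1 and 62.4 TPM in HUWE1 siRNA libraries of set 1, against 79.2, 77.2, 83.7 and 82.0 TPM in NT libraries. Every HUWE1 siRNA library was below every NT library, with a log2 fold change of -0.29 ± 0.0337 (SE). ALAD (chromosome 9, 113386317 to 113401333, minus strand), which makes porphobilinogen, held 18.96 to 21.3 TPM in HUWE1 siRNA and 18.4 to 20.1 TPM in NT libraries, with overlapping values. UROS (chromosome 10, 125784980 to 125823285, minus strand), which closes the ring, held 13.8 to 14.1 TPM in HUWE1 siRNA and 14.3 to 16.3 TPM in NT libraries. Its groups did not overlap, but at -0.10 ± 0.0416 (SE) it did not pass the test.

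UROD (chromosome 1, 45012147 to 45015575, plus strand) decarboxylates uroporphyrinogen at the end of the cytosolic steps. It held 84.9, 88.4, 85.1 and 81.6 TPM in HUWE1 siRNA libraries of set 1, against 76.3, 75.3, 75.1 and 78.8 TPM in NT libraries, and the groups did not overlap (log2 fold change 0.15 ± 0.0295, SE). PPOX (chromosome 1, 161166410 to 161178013, plus strand), which oxidizes protoporphyrinogen, held 29.9, 32.0, 29.2 and 29.04 TPM against 26.9, 26.0, 27.0 and 27.0 TPM in NT libraries, again without overlap (0.16 ± 0.0359, SE). Both therefore lay above their NT level, opposite in direction to ALAS1. PPOX shares 1118 exon bases with B4GALT3 on the other strand. No source used here states whether reads were counted by strand, and B4GALT3 averaged 66.9 TPM in HUWE1 siRNA and 68.8 TPM in NT libraries of set 1, with no call.

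Promoter windows from 250 bases before to 50 bases after the RefSeq gene start (GRCh38.p14) were found for 7 of the 9 genes, in 10 entries, and not for UROS or HMOX1. The windows of ALAS1, the entry enzyme called lower in set 1, and of UROD, called higher in sets 1 and 3, are shown because these genes differed in direction. Capitals mark GCGCATGCG, letters of the site that the factor NRF1 is known to bind, found on either strand, where matches on both strands can overlap. Both windows are on the plus strand, that of ALAS1 at chr3:52197833-52198132 and that of UROD at chr1:45012004-45012303.
ALAS1: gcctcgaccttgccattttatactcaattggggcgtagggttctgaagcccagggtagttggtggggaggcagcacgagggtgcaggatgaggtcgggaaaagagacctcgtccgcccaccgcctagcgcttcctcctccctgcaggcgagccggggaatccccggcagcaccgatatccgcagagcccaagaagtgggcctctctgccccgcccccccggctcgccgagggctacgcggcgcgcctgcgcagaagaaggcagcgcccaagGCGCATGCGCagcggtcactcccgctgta
UROD: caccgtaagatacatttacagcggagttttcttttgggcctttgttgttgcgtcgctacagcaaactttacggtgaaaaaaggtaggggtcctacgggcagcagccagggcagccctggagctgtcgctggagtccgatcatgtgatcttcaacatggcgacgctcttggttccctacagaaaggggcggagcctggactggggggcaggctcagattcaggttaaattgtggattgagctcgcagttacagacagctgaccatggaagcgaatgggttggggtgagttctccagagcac
These letters stood in the window of ALAS1, after its start and on both strands with an overlap, in none of the other entries of these genes and in 1.92% of 35116 promoter windows of the same length. The core of the antioxidant response element, TGACNNNGC on either strand, stood in 1 of the 10 entries, that of FECH, and in 13.3% of all windows. A match is a description of the letters and not a bound site. NRF1 itself was called in no set, at 23.5 TPM in HUWE1 siRNA and 23.7 TPM in NT libraries of set 1 and at log2 fold changes of -0.01, 0.03 and 0.09 in sets 1, 2 and 3.

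CPOX (chromosome 3, 98579446 to 98593723, minus strand), the first enzyme after the return to the mitochondrion, held 33.97 to 40.3 TPM in HUWE1 siRNA and 30.5 to 35.8 TPM in NT libraries, and the ranges overlapped. It shares 163 exon bases with AC021660.3 on the same strand. FECH (chromosome 18, 57548283 to 57586772, minus strand) held 6.88, 7.64, 7.15 and 7.36 TPM in HUWE1 siRNA libraries, against 6.18, 6.30, 6.79 and 6.72 TPM in NT libraries. Its groups did not overlap, and at 0.14 ± 0.0496 (SE) it was not called. Groups without overlap, called or not, were seen for 6 of the 9 genes in set 1, with UROD, PPOX and FECH higher and ALAS1, UROS and HMOX1 lower, where 31.7% of all genes tested had none, 13.3% higher and 18.4% lower.

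HMOX1 (chromosome 22, 35380361 to 35394214, plus strand) held 90.8, 87.9, 85.3 and 79.7 TPM in HUWE1 siRNA libraries of set 1, against 152.3, 141.1, 154.6 and 147.4 TPM in NT libraries. The highest HUWE1 siRNA value was far below the lowest NT value, and the log2 fold change was -0.79 ± 0.0425 (SE). HMOX2 (chromosome 16, 4474690 to 4510347, plus strand) held 73.9, 68.3, 67.4 and 66.5 TPM against 74.4, 80.4, 77.0 and 71.5 TPM in NT libraries. These values overlapped, the log2 fold change was -0.13 ± 0.0429 (SE), and the call was lost without any of 6 of the 8 libraries, all but HUWE1 siRNA replicate 1 and NT replicate 4, with fold changes of -0.14 to -0.11. HMOX2 shares 228 exon bases with NMRAL1 on the other strand, which averaged 4.66 TPM in HUWE1 siRNA and 5.38 TPM in NT libraries. The ratio of HMOX1 to HMOX2 TPM was 1.20 to 1.29 in HUWE1 siRNA and 1.76 to 2.06 in NT libraries of set 1. In sets 2 and 3 it was 1.13 to 1.60 and 1.20 to 1.55, overlapping the shared NT libraries at 1.22 to 1.92.

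Beside these values in set 1, the summed level of the 9 HEK293 line markers was 839.5 to 875.2 TPM in HUWE1 siRNA and 971.8 to 1029 TPM in NT libraries. Of these 9, 6 were called lower, where 17.9% of all genes were. The 5 fibroblast markers summed to 28.0 to 30.1 TPM in HUWE1 siRNA and 23.6 to 25.7 TPM in NT libraries, with COL1A2 at 0.0439 TPM or less in every library. Of the 3 that were tested, 2 were called higher, where 12.3% of all genes were. COL1A1, the highest of the 5 by mean in NT libraries, was not called, at 10.9 TPM in HUWE1 siRNA and 10.8 TPM in NT libraries. The part of these marker lists in the result was not tested. In bulk RNA, fewer cells with a transcript and less of it per cell cannot be told apart.

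**Figure D2:**
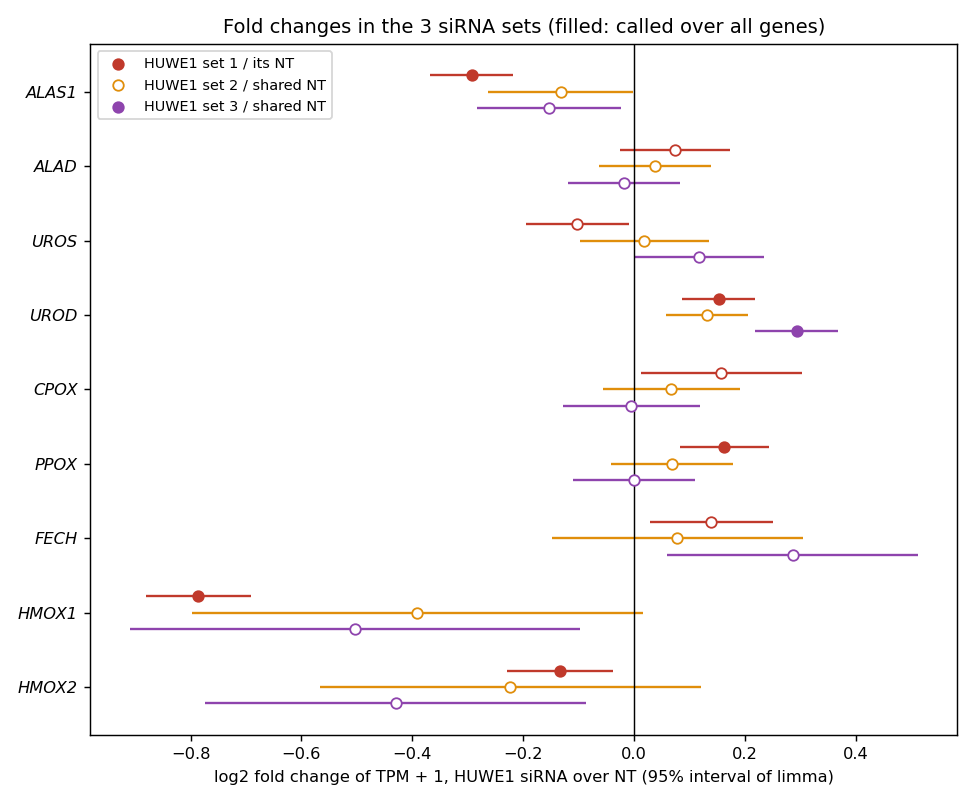
Log2 fold change of TPM + 1, HUWE1 siRNA over NT siRNA (horizontal axis), for the 9 genes in sets 1, 2 and 3, with limma's 95% interval (lines); filled points passed the test over all genes. In set 1, HMOX1 lies at -0.79, while the intervals of HMOX1, HMOX2 and FECH in sets 2 and 3, which share their NT libraries, are wider.

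In set 2 none of the 9 genes passed the test, and UROD was the only one whose groups did not overlap. Only 0.0126% of 15860 genes were called there by limma, HUWE1 among them, and at an unadjusted p under 0.05 there were 2 of the 9 and 1401 of all genes. UROD held 83.5, 86.2, 87.0 and 84.6 TPM in HUWE1 siRNA libraries of set 2, against 76.7, 79.0, 76.3 and 79.4 TPM in the shared NT libraries, a log2 fold change of 0.13 ± 0.0343 (SE). Groups did not overlap for 3.69% of all genes tested, 1.99% higher and 1.71% lower. The median log2 fold change of the 9 was 0.04, against -0.0041 for all genes. HMOX1 averaged 64.6 ± 4.46 TPM in set 2 and 89.4 ± 35.6 TPM in NT libraries (SD, n = 4), at -0.39 ± 0.187 (SE). HMOX2 averaged 50.4 ± 7.93 TPM in set 2 and 59.6 ± 13.3 TPM in NT libraries (SD, n = 4), at -0.22 ± 0.158 (SE). This fold change of HMOX2 was -0.11 without NT replicate 1, -0.37 without NT replicate 4 and -0.12 without HUWE1 siRNA replicate 1. Without NT replicate 1 the fold change of HMOX1 was -0.15 ± 0.0871 (SE), without NT replicates 1 and 4 it was -0.24 ± 0.0801 (SE), and without NT replicate 1 that of FECH was -0.02, against 0.08 with that library. That of FECH was 0.18 without NT replicate 4 and 0.018 without HUWE1 siRNA replicate 1. ALAS1 held 79.0, 71.7, 68.8 and 69.8 TPM in set 2, against 88.6, 73.1, 77.9 and 78.2 TPM in NT libraries, with overlapping values (-0.13 ± 0.0601, SE). Without NT replicate 1 it was at -0.08 ± 0.0515 (SE), and without NT replicates 1 and 4 at -0.06.

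In set 3 UROD rose to 122.9% of its NT level and was the only one of the 9 to pass the test, where 11.6% of 15860 genes were called, 7.45% higher and 4.15% lower. At an unadjusted p under 0.05 there were 6 of the 9 and 5470 of all genes. It held 97.3, 98.5, 93.0 and 93.7 TPM in HUWE1 siRNA libraries of set 3, against 76.7, 79.0, 76.3 and 79.4 TPM in NT libraries, and the log2 fold change was 0.29 ± 0.0343 (SE). UROD kept its call without any single library and without NT replicates 1 and 4 together (0.30 ± 0.0409, SE). ALAS1 held 72.7, 71.1, 67.9 and 72.9 TPM against 88.6, 73.1, 77.9 and 78.2 TPM in NT libraries. Its highest HUWE1 siRNA value lay just under its lowest NT value, and at -0.15 ± 0.0601 (SE) it was not called. It was at -0.10 ± 0.0515 (SE) without NT replicate 1 and at -0.08 without NT replicates 1 and 4. UROD and ALAS1 were the 2 genes without overlap, where 17.2% of all genes tested had none, 11.2% higher and 6.03% lower. The median log2 fold change of the 9 was -0.0054, against 0.0074 for all genes. Beside these values, mitochondrially encoded genes took 15.5% to 16.4% of TPM in set 3 and 16.6% to 18.3% in NT libraries, without overlap, and without those genes in the scaling UROD was at 0.26 ± 0.0345 (SE) and called. The 9 HEK293 line markers summed to 1253 to 1343 TPM in set 3 and 1120 to 1306 TPM in NT libraries, with 2 called lower, NEFM and NEFL, and their part in the result was not tested.

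HMOX1 held 66.4, 60.4, 58.7 and 53.7 TPM in HUWE1 siRNA libraries of set 3, against 141.8, 74.1, 79.2 and 62.4 TPM in NT libraries. NT replicate 1 was far above the other 3 NT libraries, while NT replicate 4 lay inside the HUWE1 siRNA range, so the groups overlapped. The log2 fold change of -0.50 ± 0.187 (SE) was not called. It was -0.26 ± 0.0871 without NT replicate 1, -0.65 ± 0.173 without NT replicate 4 and -0.36 ± 0.0801 (SE) without both, and it was called in the last 2 fits. HMOX2 held 45.9, 50.3, 37.9 and 39.5 TPM in set 3, against 73.8, 57.4, 64.9 and 42.4 TPM in NT libraries, at -0.43 ± 0.158 (SE). FECH held 14.3, 13.0, 14.6 and 15.4 TPM in set 3, against 9.34, 11.7, 11.3 and 14.4 TPM in NT libraries, at 0.29 ± 0.104 (SE). In both genes 3 NT libraries lay to one side of the HUWE1 siRNA values and NT replicate 4 lay among them. Without NT replicate 4 the number of members called was 5, namely UROS, UROD, FECH, HMOX1 and HMOX2, and without NT replicates 1 and 4 it was 4, without UROS. In those fits 37.0% and 20.3% of all genes were called, so nothing is read from these counts.

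The remaining enzymes overlapped their NT libraries in both sets, and without NT replicate 1 the fold changes of ALAD, CPOX and PPOX in set 2 were 0.0057, 0.034 and 0.029. ALAD held 19.9 to 21.6 TPM in set 2 and 19.3 to 20.5 TPM in set 3, against 18.97 to 21.6 TPM in NT libraries, with log2 fold changes of 0.04 and -0.02. UROS held 12.5 to 14.1 TPM in set 2 and 13.8 to 14.3 TPM in set 3, against 11.9 to 14.002 TPM in NT libraries, with 0.02 and 0.12. The lowest value of UROS in set 3 was above 3 of the 4 NT libraries. CPOX held 50.8 to 57.1 TPM in set 2 and 48.3 to 55.3 TPM in set 3, against 47.8 to 54.4 TPM in NT libraries, with 0.07 and -0.0054. PPOX, which was called higher in set 1, held 18.3 to 19.3 TPM in set 2 and 17.2 to 18.99 TPM in set 3, against 16.4 to 19.2 TPM in NT libraries, with 0.07 and -0.00068. B4GALT3, its partner on the other strand, was called lower in set 3, at 40.96 TPM against 50.7 TPM in NT libraries.

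**Figure D3:**
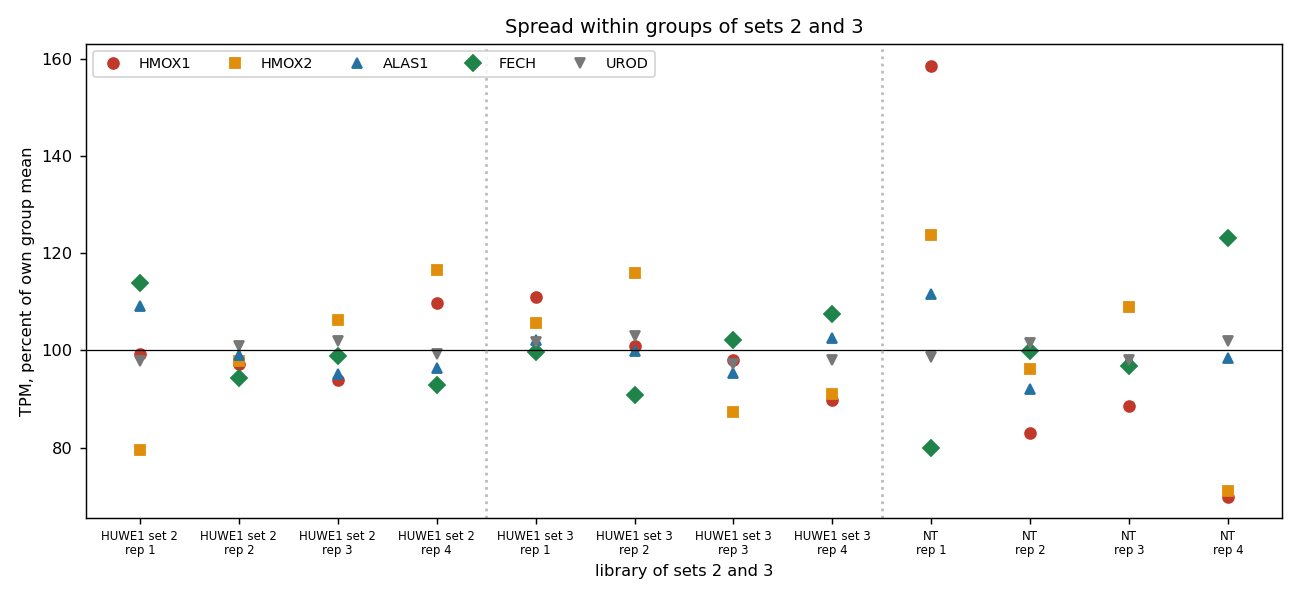
TPM of 5 genes as a percent of the mean of their own group (vertical axis, not starting at 0) in each library of sets 2 and 3 and their shared NT libraries. NT replicate 1 has HMOX1 at 158.6% and FECH at 80.02% of the NT mean, NT replicate 4 has them at 69.9% and 123.2%, and UROD stays within 97.2% and 103.0% in all 12 libraries.

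Within the groups of sets 2 and 3, the oxygenases and FECH had the 3 highest coefficients of variation of the 9 in each group. In NT replicate 1, HMOX1 was at 158.6%, HMOX2 at 123.8%, ALAS1 at 111.6% and FECH at 80.02% of the NT mean. In NT replicate 4, HMOX1 was at 69.9%, HMOX2 at 71.2%, ALAS1 at 98.4% and FECH at 123.2%. HUWE1 siRNA replicate 1 of set 2 had the lowest HMOX2 of its group, at 79.4%, and the highest FECH, at 114.0%, and HUWE1 siRNA replicate 2 of set 3 had the highest HMOX2, at 115.8%, and the lowest FECH, at 90.8%. In set 1, HMOX1, HMOX2 and FECH stayed between 92.8% and 107.1% of their group means in all libraries. The part that whatever sets NT replicates 1 and 4 apart has in the fold changes of these genes was not tested beyond leaving those libraries out.

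Set 3 was also set against set 2, whose libraries are the same that the choice of genes drew on, so these values too are a description. UROD averaged 95.6 ± 2.71 TPM in set 3 and 85.3 ± 1.55 TPM in set 2 (SD, n = 4), with every set 3 library above every set 2 library and a log2 difference of 0.16 (95% interval 0.09 to 0.24). Limma called none of the 9, with 1 at an unadjusted p under 0.05, where it called 0.517% of 15860 genes, 0.309% higher and 0.208% lower. With only these 2 groups in the fit UROD was called, and so were 2.07% of all genes. FECH averaged 14.3 TPM in set 3 and 12.3 TPM in set 2, a difference of 0.21 (-0.02 to 0.43). For ALAS1 the interval was -0.15 to 0.11, for HMOX2 -0.55 to 0.14 and for HMOX1 -0.52 to 0.29, so the data allow differences of these sizes between the sets. Groups did not overlap for UROD alone, and for 13.2% of all genes tested, 8.13% higher and 5.05% lower.

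The wider pathway was described through 101 other genes in 12 lists of heme transport, breakdown, use, sensing and control, iron handling and precursor supply, of which 97 were tested. In set 1, 13 of these rose and 26 fell, or 40.2%, against the background of 30.3%. In set 2 limma called none of them over all genes, with 4 at an unadjusted p under 0.05, and in set 3, 6 rose and 8 fell, or 14.4%, against 11.6%. The median log2 fold change of the 97 was -0.03 in set 1, -0.01 in set 2 and 0.02 in set 3. The lists were chosen with earlier results of these data known, and called genes were named by their small p. Adjusted p-values of genes in the lists, also between sets 3 and 2, are therefore a description and no independent support. Of 34 called genes of these lists followed under the alternatives in set 1, up to 4 a list, 8 lost their call with at least 1 library left out or under another setting, namely SDHC, HEBP2, LONP1, HIF1A, ATF4, SLC25A28, IREB2 and DLST. In set 3, OGDH was the only one of the 14 to keep its call throughout, and the other 13 lost theirs without HUWE1 siRNA replicate 3, HUWE1 siRNA replicate 4 or NT replicate 3, and with only set 3 and its NT libraries in the fit, while without NT replicates 1 and 4 the call of NR1D1 alone was lost.

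Of 3 genes that act with or after the oxygenases, POR and BLVRB rose in set 1, opposite in direction to HMOX1. That is 66.7% of this short list called in set 1, against 30.3% of all genes. In set 3 it was 33.3%, against 11.6% of all genes. POR, the reductase that passes electrons to heme oxygenase, averaged 40.5 TPM in HUWE1 siRNA and 33.1 TPM in NT libraries (log2 fold change 0.28 ± 0.0372, SE; limma adjusted p = 0.000603). BLVRB, a biliverdin reductase, averaged 28.7 TPM in HUWE1 siRNA and 21.5 TPM in NT libraries (0.40 ± 0.0680, SE; limma adjusted p = 0.00222). BLVRA, the main biliverdin reductase of adults, stood at 0.01 in set 1 and rose in set 3, to 68.2 TPM against 57.0 TPM in NT libraries (0.26; limma adjusted p = 0.0181). POR and BLVRB stood at -0.09 and 0.21 in set 3 and were not called there.

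Among 15 genes of porphyrin and heme transport and handling, 1 rose and 5 fell in set 1, or 40%, against 30.3% of all genes. The heme-binding membrane protein gene PGRMC1 fell by 0.18 on the log2 scale, SLC46A1, a transporter of folate and heme, by 0.16 and HEBP2 by 0.12. In sets 2 and 3 PGRMC1 lay above its NT libraries without overlap, at 0.07 and 0.08, and was not called. TMEM14C, which helps bring protoporphyrinogen into the mitochondrion, fell by 0.09 in set 1 and rose by 0.26 in set 3, with no overlap between groups in either. FLVCR2 fell in set 3, to 0.951 TPM in HUWE1 siRNA against 1.82 TPM in NT libraries. With TMEM14C that is 13.3% of the 15 called in set 3, against 11.6% of all genes. Of 3 genes that modify heme for the respiratory chain, COX10, which makes heme o, fell by 0.18 in set 1, and COX15, which turns it into heme a, rose by 0.12. That is 66.7% of this short list, against 30.3% of all genes. HCCS, which attaches heme to cytochrome c, rose by 0.14 in set 3, or 33.3% of the list, against 11.6%. Of 10 genes of heme proteins, 4 rose and 1 fell in set 1, or 50%, against 30.3% of all genes. Among them were CAT, which encodes catalase, at 0.21, CYP1B1 at 0.21, SDHC at 0.13 and CYB5A at -0.20. In set 3 limma called none of this list, against 11.6% of all genes, with 2 of the 10 at an unadjusted p under 0.05.

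Of the genes that sense heme or act on HMOX1 and ALAS1, NR1D1, a nuclear receptor that binds heme, was called lower in sets 1 and 3. It was at 7.68 TPM in HUWE1 siRNA against 9.98 TPM in NT libraries of set 1 (-0.34, limma adjusted p = 0.00168). In set 3 it was at 7.29 TPM in HUWE1 siRNA against 9.34 TPM in NT libraries (-0.32, limma adjusted p = 0.0394). Its groups overlapped in set 3, and that call was lost without NT replicates 1 and 4 and in other fits. In set 2 NR1D1 stood at -0.10 without a call. EIF2AK1, the heme-regulated kinase, rose by 0.11 in set 1. These 2 were 40% of the 5 heme sensors in set 1, against 30.3% of all genes. In set 3 the share was 20%, against 11.6% of all genes. BACH1 was called in no set, at -0.04, 0.01 and 0.07 in sets 1, 2 and 3. Of 11 HMOX1 regulators, 1 rose and 3 fell in set 1, or 36.4%, against 30.3% of all genes. They were HIF1A at 0.12, KEAP1, the inhibitor of NRF2, at -0.19, NFE2L1 at -0.11 and ATF4 at -0.07. In set 3 HIF1A (0.21) and NFE2L2, which encodes NRF2 (0.22), rose, or 18.2% of the 11, against 11.6% of all genes. Of 7 ALAS1 regulators, 1 was called in set 1, or 14.3%, against 30.3% of all genes. It was LONP1, a protease that degrades ALAS1 protein, which fell by 0.11. The coactivator gene PPARGC1B fell by 0.47 in set 3, the only 1 of the list called there, or 14.3%, against 11.6% of all genes.

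Of 12 tested NRF2 targets, which like HMOX1 carry antioxidant response elements, 1 rose and 3 fell in set 1. That is 33.3%, against 30.3% of all genes. Those that fell were TXN (thioredoxin, -0.25), SRXN1 (sulfiredoxin, -0.20) and TXNRD1 (thioredoxin reductase, -0.19). GCLM stood at 0.03, SLC7A11 at 0.03 and NQO1 at -0.05 in set 1, none of them called. In set 3, 1 of the 12 was called, or 8.33%, against 11.6% of all genes. It was the transporter gene ABCC1, lower at -0.19.

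Among 14 genes of iron uptake, storage and export, 1 rose and 3 fell in set 1, or 28.6%, against 30.3% of all genes. FTH1, the ferritin heavy chain, fell by 0.17, PCBP1, an iron chaperone, by 0.19 and SLC25A28, which carries iron into mitochondria, by 0.13, while IREB2, an iron sensor that binds mRNA, rose by 0.17. In set 3 the ferritin light chain gene FTL fell by 0.18 and PCBP1 by 0.34, and NCOA4, the receptor for ferritin breakdown, rose by 0.21. That is 21.4% of the list, against 11.6% of all genes. Of 9 iron-sulfur cluster genes, 5 fell and 1 rose in set 1, or 66.7%, against 30.3% of all genes. Among them were the chaperone gene HSPA9 (-0.36, limma adjusted p = 1.34e-05), FDX2 (-0.25), the cysteine desulfurase gene NFS1 (-0.20) and FDXR (0.14). In set 3 NFS1 fell by 0.38 and was the only 1 of the 9 called, or 11.1%, against 11.6% of all genes. Of 8 genes that supply glycine and succinyl-CoA, the substrates of ALAS1, 3 fell in set 1, or 37.5%, against 30.3% of all genes. They were SHMT2, which makes glycine in mitochondria, at -0.28, and OGDH and DLST, subunits of the enzyme that makes succinyl-CoA, at -0.23 and -0.09. OGDH fell by 0.64 in set 3, where it alone of these 8 was called, or 12.5%, against 11.6% of all genes. It was the only gene of the 12 lists called between set 3 and set 2, at 44.1 TPM in set 3 against 61.4 TPM in set 2 (-0.47; limma adjusted p = 0.0158). That call was lost without replicate 1, 3 or 4 of set 3 or replicate 2, 3 or 4 of set 2, with an adjusted p of 0.0533 to 0.0703.

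**Figure D4:**
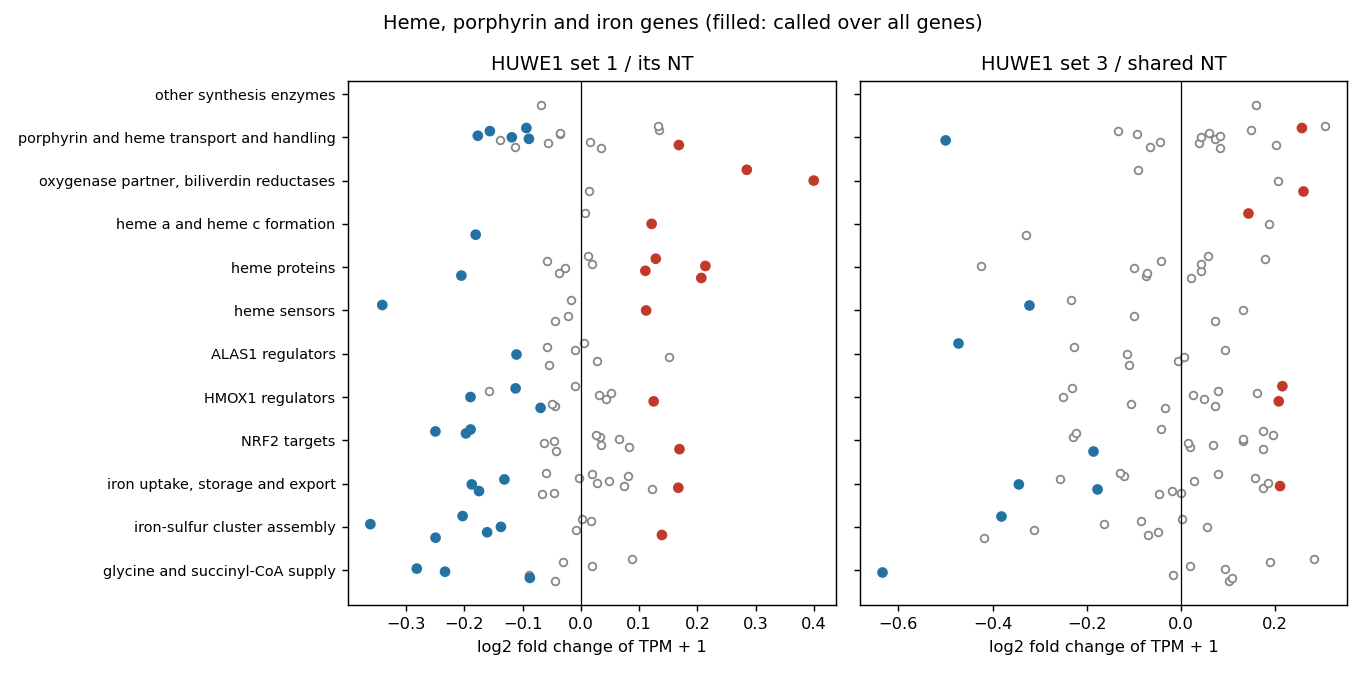
Log2 fold change of TPM + 1, HUWE1 siRNA over NT siRNA (horizontal axis), for each tested gene (point) of 12 lists of heme and iron genes in set 1 and set 3; red points were called higher and blue points lower over all genes, and open points were not called. In set 1 POR and BLVRB lie at 0.28 and 0.40 in the row of the oxygenase partner and biliverdin reductases. There 5 of 9 iron-sulfur cluster genes are called lower in set 1, against 17.9% of all genes tested. The 2 panels have different horizontal scales.

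Over all libraries, the genes most like HMOX1 among 11467 others were MLXIP, PDRG1, TIMM22, AL691432.2 and RIMBP3, by the smaller of the Pearson r of log2(TPM + 1) over the 8 libraries of the first table and the 12 of the second. Their r lay between 0.952 and 0.988 in both tables. MLXIP, which encodes the glucose-sensing factor MondoA, had 0.973 and 0.969, and 0.889 in the second table without NT replicate 1. Without that library PDRG1 had 0.808, TIMM22 0.941, AL691432.2 0.834 and RIMBP3 0.901 there. The genes least like HMOX1 were PRCP, EIF3H and MLXIPL, which encodes ChREBP, at -0.973 in the first table and -0.958 in the second. Without NT replicate 1 PRCP, EIF3H and MLXIPL had -0.896, -0.906 and -0.833 in the second table. These r are descriptions and carry no p: the first table holds 2 groups that differ in HMOX1, and in the second NT replicate 1 stands apart in HMOX1. Among the members, ALAS1 had 0.982 in the first table and 0.775 in the second, but 0.332 there without NT replicate 1. HMOX2 had 0.765 and 0.797, with 0.788 without that library, and FECH -0.812 and -0.818, with -0.715 without it.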

How the data were processed

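The authors deposited TPM values of 20 libraries in 2 tables, with 8 libraries of set 1 in the first and 12 of sets 2 and 3 in the second. Libraries were stranded and poly(A)-selected, per the labels' protocols, and reads were aligned to a build that the submitters' processing notes give as hg38. No source used here names the aligner, counter or annotation. Columns were matched to samples by title, and 0 columns were unused.

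From these values log2(TPM + 1) was computed. Genes that reached 1 TPM in at least 4 libraries per table were fitted with limma 3.58.1 in R 4.3.3 (moderated variance with a mean trend), the second table as 1 model of 12 libraries. Calls are Benjamini-Hochberg adjusted p under 0.05 over all genes tested. Fold changes on the log2(TPM + 1) scale understate the change of low genes. The procedure was tested on simulated data. Replicates are biological per the labels. The members and gene lists were chosen with earlier results of these data known. Named genes were all members, up to 4 called genes with the smallest p in each list and comparison, and the 5 genes most and 3 least like HMOX1 with a mean of 5 TPM or more. A few genes under this rule are not reported here. BACH1, NRF1, NEFM, NEFL, COL1A1, COL1A2, the set 1 value of TMEM14C and the genes that overlap members or stand beside a called list member without a call were named after their values were seen. Coordinates are from GENCODE on GRCh38. Promoters are from RefSeq. Alternatives were the pseudocount, the filter, the scaling, the replicate block, the variance trend, the groups in the fit and each library left out.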

Additional observations from a re-analysis of the deposited data

Results flagged for a closer look

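In the NT libraries of set 1, PPOX was at 26.0 TPM in replicate 2, farther below the other 3 (26.9 to 27.0 TPM) than their spread by Dixon's test at 95%. This was the only value set apart in this way among 50 groups of 4 tested, the 9 genes and HUWE1 in 5 groups each, and chance sets apart about 1 group in 20.

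In 3 genes of the wider lists every HUWE1 siRNA library lay on one side of its NT libraries in set 1 and on the other side in set 3. Groups did not overlap for 31.7% of all genes tested in set 1 and 17.2% in set 3. The share of all genes on opposite sides was not computed, so nothing is read from the count of 3. The difference between the sets, which come from separately normalized tables, was not tested. TMEM14C had a log2 fold change of -0.093 in set 1 and 0.26 in set 3, with both called. PGRMC1 had -0.18 in set 1, and 0.08 in set 3 without a call. It had 0.07 in set 2, also without overlap and without a call. POR had 0.28 in set 1, and -0.09 in set 3 without a call. OGDH differed between set 3 and set 2 by the test of that difference, at -0.47 (limma adjusted p = 0.0158).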

How the results depend on the processing

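The number of the 9 genes called in set 1 was 4 to 6 under all alternatives, and ALAS1, UROD, PPOX and HMOX1 were called in each. HMOX2 lost its call in 10 of them, and FECH gained one in 4. In set 2 limma called none of the 9 under any alternative. In set 3 the count was 1 (UROD) in all alternatives but those without NT replicate 4, and it ranged from 1 to 5 with single libraries left out. It was 4 without NT replicates 1 and 4, a choice made after the data were seen, and there ALAD in set 2 was at -0.013. Between sets 3 and 2 it was 1 (UROD) with only those groups in the fit, and 0 otherwise.

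With single libraries left out, log2 fold changes near 0 changed sign. In set 2, UROS ranged from -0.017 to 0.054 and FECH from -0.015 to 0.18. In set 3, ALAD ranged from -0.051 to 0.0094, CPOX from -0.044 to 0.023 and PPOX from -0.039 to 0.032. Between sets 3 and 2, ALAS1 ranged from -0.044 to 0.021 and AL691432.2 from -0.095 to 0.060. The cause was not tested.

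The replicate numbers did not pair the samples throughout. The correlations of same-numbered deviations were 0.0002 to 0.052 in set 1, -0.48 to 0.039 in set 2, -0.027 to 0.41 in set 3 and -0.25 to 0.11 between sets 3 and 2. The library most alike had the same number for replicate 4 of set 1 and replicates 1 and 4 of set 3 (0.20 and 0.41). For replicates 1 and 4 of set 2 it was NT replicate 4 and NT replicate 1. With the replicate block, 5, 0, 1 and 0 of the 9 were called in those comparisons, as without it, and 4597, 1, 693 and 17 of all genes, against 4863, 2, 1839 and 82. The block ended the calls of 10 of the 14 wider-list genes in set 3 and that of OGDH between sets 3 and 2 (limma adjusted p = 0.0771). Over all alternatives, 3627 to 4866 genes were called in set 1, 1 to 6 in set 2, 162 to 5874 in set 3 and 17 to 328 between sets 3 and 2. In no alternative was the median log2 fold change of all genes beyond 0.021 from 0. TPM carries no read depth, so what depth limits is unknown.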
